A study of Mus musculus with 12 samples.

Results

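The Bcl2 family of survival genes was followed through natural killer T (NKT) cells of the thymus and the liver. The 10 genes were chosen by symbol: the pro-survival genes Bcl2, Bcl2l1 and Mcl1, the effectors Bax and Bak1, and the BH3-only genes Bcl2l11, Bid, Bad, Pmaip1 and Bbc3. All 10 of 10 symbols were found among the 23284 genes listed in each tissue's deposited FPKM (fragments per kilobase of transcript, scaled to the library's mapped total). The 12 libraries form 4 groups of 3, all from mice of the C57BL/6 strain. NKT cells are a T cell lineage whose receptor binds lipid antigens on the CD1d molecule. The thymus cKO and liver cKO groups are NKT cells of double-negative (DN) origin, from mice in which an E8III-Cre transgene, active at the double-positive (DP) stage of thymocyte development, deletes a floxed Rag2 gene. The thymus YFP+ and liver YFP+ groups are NKT cells of DP origin, from mice in which the same Cre removes a stop cassette at Rosa26. Both kinds of mouse carry the Cre, and only the cKO mice lose Rag2, so the origin of the cells and the kind of mouse cannot be told apart. The sort took viable cells positive for CD1d dimer and the T cell receptor beta chain and negative for CD4, CD8 and CD45R. The sources used here give neither ages nor the number of animals behind a library, and p-values measure the spread between libraries, which may be technical.

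Proteins of this family decide whether the mitochondrial outer membrane is opened to release cytochrome c, the step that starts caspase activation. BCL-2, BCL-XL (from Bcl2l1), MCL-1 and A1 (from the Bcl2a1 genes) hold BAX and BAK in check, and BH3-only proteins such as BIM (from Bcl2l11), BID, BAD, NOXA (from Pmaip1) and PUMA (from Bbc3) relieve that restraint or engage the effectors. Survival of peripheral NKT cells is known to depend on interleukin 15, which signals through the receptor chain encoded by Il2rb and sustains BCL-2 and related proteins.

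The titles and the descriptions of the 6 liver libraries name opposite mice. The groups used here follow the titles, as do the headers of the liver columns. Should the descriptions be right instead, each liver difference below changes its sign, and the differences between tissues take other values, given with them. Rag2 was at 0 FPKM in the libraries titled liver cKO and at 1.14 ± 0.199 FPKM in those titled liver YFP+, and at 0.0050 ± 0.0087 in thymus cKO and 0 in thymus YFP+ (mean ± SD, n = 3). Of 10 NKT cell markers 9 were tested, of which 0 were higher and 4 lower in cKO in the thymus, and 2 higher and 3 lower in the liver. Among all tested genes 2.64% passed as higher and 13.1% as lower in the thymus, and 7.49% and 19.7% in the liver. The marker Zbtb16, which encodes the NKT cell regulator PLZF, averaged 3.76 ± 0.565 FPKM for cKO against 12.3 ± 1.26 for YFP+ in the thymus. In the liver it averaged 9.86 ± 0.949 against 11.4 ± 2.31 and did not pass. The marker Sh2d1a was lower in both tissues, at 11.3 ± 0.599 against 20.9 ± 1.92 FPKM in the thymus and 24.4 ± 0.644 against 64.8 ± 9.90 in the liver. The 2 markers higher in liver cKO were Cd247 and Il2rb. Summed FPKM per library ran from 187828 to 212688 in the thymus and from 450429 to 558042 in the liver. Read totals are not part of these tables, so depth is unknown, and the tissues were normalized separately, so levels are compared within a tissue only. In bulk RNA, fewer cells of a type and less RNA per cell cannot be told apart. The library thymus cKO replicate 1 stood apart from the others of its group, with the heat shock gene Hspa1a at 90.7 FPKM against 743 and 751. All 3 lay above the thymus YFP+ libraries, at 4.79 to 6.18 FPKM, and replicate 1 was the nearest to them. The interferon-stimulated gene Ifit3 was at 135 FPKM in replicate 1 against 16.3 and 38.7, with the thymus YFP+ libraries between, at 62.8 to 74.1. What raised Hspa1a in all 3 thymus cKO libraries, and its part in the thymus differences, was not tested.

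In the liver, Bcl2 RNA was 1.88-fold higher in cKO than in YFP+ NKT cells. In the thymus, the means of Bcl2 differed by 1.06-fold, and none of the tested members passed the test. Bak1, a pore-forming effector, was also higher in liver cKO cells, 1.58-fold, a call lost in 6 of 11 alternatives. Mcl1 and Bid lay lower in liver cKO libraries, without passing the test in the liver alone. Their differences by origin differed between the tissues, a call lost in 2 of 18 alternatives for Mcl1 and 8 of 18 for Bid. Neither passed between tissues with the liver groups as the descriptions name them. Outside the 10 genes, the 3 Bcl2a1 copies that encode the pro-survival protein A1 were lower in cKO cells of both tissues.

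**Figure D1:**
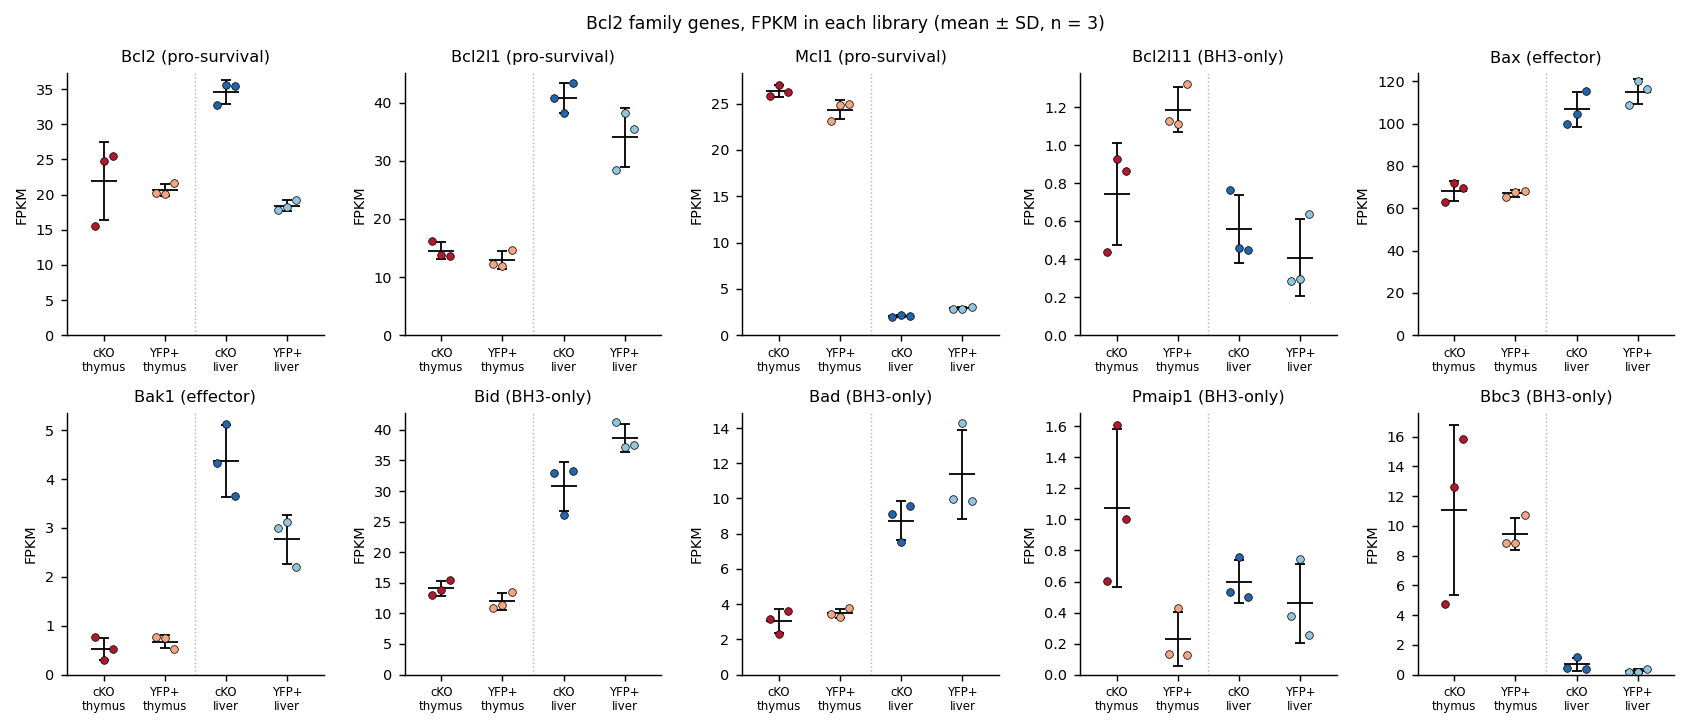
FPKM of the 10 genes in each library (points), with the group mean and SD (bars, n = 3), 1 panel per gene with its own axis from 0 and a dotted line between the separately normalized tissues. In the liver the 3 cKO libraries lie at 32.7 to 35.6 FPKM of Bcl2 and the 3 YFP+ libraries at 17.7 to 19.3.

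Among the pro-survival genes, Bcl2 was at 15.6, 24.8 and 25.5 FPKM in thymus cKO replicates 1 to 3 and at 20.2, 20.1 and 21.6 in thymus YFP+ replicates 1 to 3. The thymus groups overlapped, because cKO replicate 1 lay below all 3 YFP+ libraries and the other cKO libraries lay above them. In the liver Bcl2 was at 32.7, 35.6 and 35.5 FPKM in cKO and at 17.7, 18.2 and 19.3 in YFP+ libraries, and the groups did not overlap.

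The test was limma on log2(FPKM + 1), fitted over every gene that averaged 1 FPKM or more in the libraries compared, with Benjamini-Hochberg adjustment over all genes tested and a threshold of 0.05. The fitted difference for Bcl2 in the liver was 0.87 (SE 0.085, adjusted p = 3.94e-04), or 0.98 relative to the median gene, which lay at -0.11. It passed in all 12 alternatives run for the liver, with adjusted p from 7.36e-05 to 0.00406. In the thymus the fitted difference for Bcl2 was 0.05 (SE 0.17, adjusted p = 0.828), with a 95% interval from -0.33 to 0.44, and the median gene lay at -0.16. Without thymus cKO replicate 1 it was 0.27 (adjusted p = 0.0368). Without cKO replicate 2 or 3 it turned to -0.05 and -0.07.

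Bcl2l1, whose longer product is BCL-XL, was at 16.3, 13.8 and 13.6 FPKM in thymus cKO and 12.2, 11.8 and 14.6 in thymus YFP+ libraries. Its liver values were 40.7, 38.2 and 43.4 FPKM in cKO and 28.4, 38.2 and 35.5 in YFP+ libraries. The groups overlapped in both tissues, in the liver through cKO replicate 2 at 38.157 and YFP+ replicate 2 at 38.239 FPKM. The fitted differences of Bcl2l1 were 0.16 in the thymus (SE 0.11, adjusted p = 0.291) and 0.26 in the liver (SE 0.12, adjusted p = 0.139). With libraries rescaled by median ratios, Bcl2l1 passed as higher in cKO in both, at 0.34 (adjusted p = 0.0437) and 0.38 (adjusted p = 0.0398).

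Mcl1, a short-lived pro-survival protein needed by many lymphocytes, was steady within groups. It was at 25.8, 27.0 and 26.3 FPKM in thymus cKO and at 23.1, 24.8 and 25.0 in thymus YFP+ libraries. In the liver it was at 1.99, 2.21 and 2.12 FPKM in cKO and at 2.88, 2.87 and 3.02 in YFP+ libraries. The groups did not overlap in either tissue, with cKO above YFP+ in the thymus and below it in the liver. The fitted difference of Mcl1 was 0.11 in the thymus (SE 0.071, adjusted p = 0.272) and -0.34 in the liver (SE 0.12, adjusted p = 0.0663), so neither passed. With median-ratio scaling the thymus difference was 0.30 (adjusted p = 0.0340), and with array weights the liver difference was -0.33 (adjusted p = 0.0344).

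Of the effectors, Bax was the most abundant of the 10 genes in all 12 libraries, at percentile 97.4 to 98.6 of the genes listed. Its thymus values were 62.95, 72.01 and 69.5 FPKM for cKO and 65.2, 67.9 and 68.3 for YFP+ libraries. Its liver values were 99.7, 104.7 and 115.6 FPKM for cKO and 108.7, 120.1 and 116.4 for YFP+ libraries. The groups overlapped in both tissues. The fitted difference of Bax was 0.02 in the thymus (95% interval -0.15 to 0.19, adjusted p = 0.863) and -0.11 in the liver (-0.30 to 0.08, adjusted p = 0.360), where it was 0.0058 with median-ratio scaling.

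Bak1, the other effector, was far lower than Bax. In the thymus its mean over the 6 libraries was 0.601 FPKM, below the tested level, with 0.303 to 0.760 FPKM in cKO and 0.519 to 0.762 in YFP+ libraries. In the liver Bak1 was at 4.34, 5.12 and 3.66 FPKM in cKO and at 3.002, 3.12 and 2.198 in YFP+ libraries, with no overlap. The fitted difference of 0.51 (SE 0.16) passed narrowly (adjusted p = 0.0444). The call was lost with no filter on low values (0.101), and also without liver cKO replicate 1 (0.110) or 2 (0.143) and without liver YFP+ replicate 1 (0.0509), 2 (0.0726) or 3 (0.105). In the RefSeq annotation Bak1 overlaps Ggnbp1, Bcl2l1 overlaps Cox4i2, Bcl2l11 overlaps Acoxl and Bad overlaps Gpr137. The sources do not say if counting used strand, so reads of these pairs may be mixed.

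Among the BH3-only genes, Bid, which caspase-8 cleaves to link death receptors to mitochondria, was the most abundant. Bid was at 13.006, 13.9 and 15.4 FPKM in thymus cKO and 10.9, 11.4 and 13.5 in thymus YFP+ libraries, and the groups overlapped. In the liver Bid was at 32.9, 26.1 and 33.3 FPKM in cKO and 41.3, 37.2 and 37.6 in YFP+ libraries, with every cKO library below every YFP+ library. The fitted differences of Bid were 0.22 in the thymus (SE 0.10, adjusted p = 0.150) and -0.33 in the liver (SE 0.11, adjusted p = 0.0608). The thymus difference passed with median-ratio scaling (0.41, adjusted p = 0.0345) and with array weights (0.33, adjusted p = 0.0238). The liver difference of Bid passed with array weights (-0.29, adjusted p = 0.0446) and when testing was limited to genes averaging 5 FPKM or more (adjusted p = 0.0455).

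Bad, whose protein is held inactive by phosphorylation under growth factor signals, was at 3.17, 2.28 and 3.64 FPKM in thymus cKO and 3.41, 3.27 and 3.76 in thymus YFP+ libraries. In the liver it was at 9.13, 7.51 and 9.59 FPKM in cKO and 9.96, 14.3 and 9.87 in YFP+ libraries, where the groups were adjacent without overlapping. Its fitted differences were -0.17 in the thymus (SE 0.14, adjusted p = 0.383) and -0.33 in the liver (SE 0.16, adjusted p = 0.159). The liver difference of Bad passed with array weights (-0.53, adjusted p = 0.0186).

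Bbc3, a target of p53 that encodes PUMA, varied within thymus cKO. It was at 4.71, 12.6 and 15.8 FPKM in thymus cKO replicates 1 to 3 and at 8.83, 8.84 and 10.7 in thymus YFP+ libraries. As for Bcl2, thymus cKO replicate 1 lay below all YFP+ libraries and the other cKO libraries above them. Hspa1a and the immediate early gene Fosb, the latter at 3.72, 13.7 and 12.6 FPKM (0.428 to 1.11 in thymus YFP+), were lowest among cKO libraries in the same one, and their part in the result was not tested. The fitted difference of Bbc3 in the thymus was 0.07 (SE 0.35, adjusted p = 0.892), and it was 0.54 without cKO replicate 1 (adjusted p = 0.0173), against -0.09 and -0.24 without cKO replicate 2 and 3. In the liver Bbc3 was below the tested level, at 0.442, 1.20 and 0.403 FPKM in cKO and 0.174, 0.144 and 0.384 in YFP+ libraries. The liver groups of Bbc3 did not overlap, and with no filter the difference was 0.42 (SE 0.19, adjusted p = 0.225).

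Bcl2l11, which encodes BIM, the BH3-only protein linked to negative selection and cytokine withdrawal in T cells, was low throughout. It was at 0.436, 0.927 and 0.865 FPKM in thymus cKO and at 1.12, 1.11 and 1.32 in thymus YFP+ libraries. Every thymus cKO library lay below every thymus YFP+ library, at a mean of 0.964 FPKM over the 6, just under the level required for the test. Fitted with no filter, the difference of Bcl2l11 was -0.34 (SE 0.14, adjusted p = 0.242). In the liver it was at 0.764, 0.460 and 0.448 FPKM in cKO and 0.284, 0.298 and 0.640 in YFP+ libraries, and the groups overlapped.

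Pmaip1, which encodes NOXA, the BH3-only protein that binds MCL-1 and A1, was below the tested level in both tissues. In the thymus it was at 0.601, 1.61 and 1.002 FPKM in cKO and at 0.131, 0.430 and 0.128 in YFP+ libraries, with no overlap. Without a filter its thymus difference was 0.73 (SE 0.20), and it did not pass (adjusted p = 0.0996). In the liver Pmaip1 was at 0.534, 0.758 and 0.502 FPKM in cKO and 0.375, 0.744 and 0.258 in YFP+ libraries, which overlapped.

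**Figure D2:**
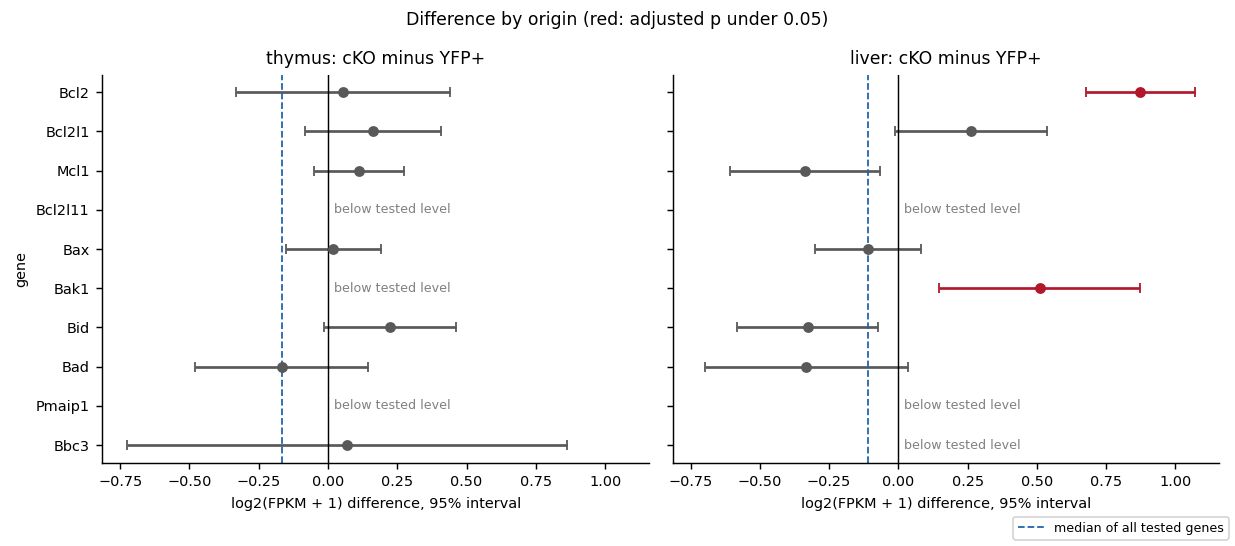
Fitted log2(FPKM + 1) difference, cKO minus YFP+, with its 95% interval for each tested member (rows) in the thymus (left) and the liver (right), beside the median of all tested genes (dashed line). Bcl2 at 0.87 and Bak1 at 0.51 in the liver are the differences that passed (red).

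Counted together, 7 of the 10 genes reached the tested level in each tissue. In the thymus 0 of 7 passed in limma (0 at an unadjusted p under 0.05), while 15.7% of all 9097 tested genes passed there. The median fitted difference of these 7 was 0.07, against -0.16 for all genes. The thymus count was 3 with median-ratio scaling (Bcl2l1, Mcl1 and Bid, all higher), 1 with array weights (Bid) and 2 without cKO replicate 1 (Bcl2 and Bbc3). In the liver 2 of 7 passed, both higher, while 27.2% of all 9591 tested genes passed, 7.49% as higher and 19.7% as lower. The share of members called in the liver was thus near that of all genes. Their median difference was -0.11, as was that of all genes. The liver count was 1, Bcl2, in every fit without 1 library except that without cKO replicate 3, where it was 2. With array weights it was 5, Bcl2 and Bak1 higher and Mcl1, Bid and Bad lower. With median-ratio scaling Bcl2, Bcl2l1 and Bak1 passed in the liver, all higher. Groups did not overlap for 1 of 7 tested members in the thymus (Mcl1, higher), against 42.9% of all tested genes (5.34% higher). They did not overlap for 5 of 7 in the liver, 2 higher and 3 lower, against 44.3% of all tested genes (14.7% higher and 29.6% lower).

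**Figure D3:**
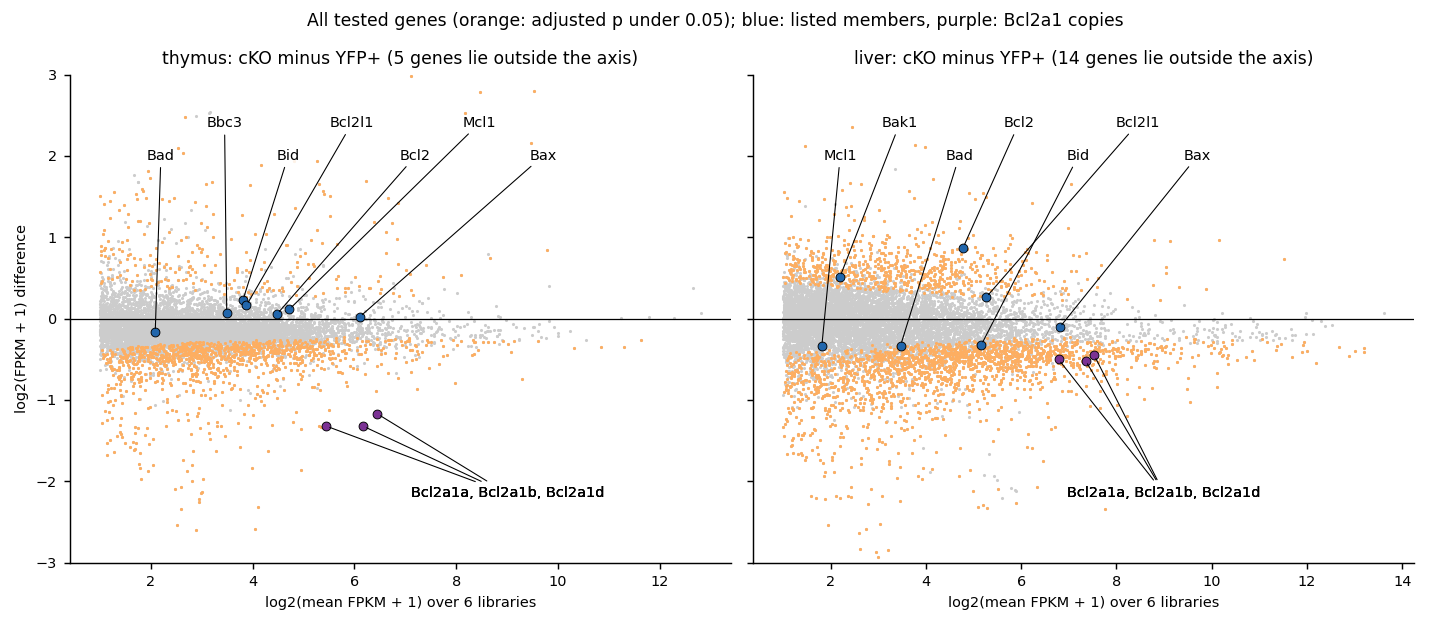
Fitted log2(FPKM + 1) difference, cKO minus YFP+, against log2(mean FPKM + 1) for every tested gene in the thymus (left) and the liver (right), with genes that passed in orange, the tested members in blue and the 3 Bcl2a1 copies in purple. In the thymus the members lie between -0.17 and 0.22 and the Bcl2a1 copies between -1.32 and -1.17.

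The difference between tissues was tested as an interaction over all 12 libraries, in which a constant factor between the tables cancels for each gene, apart from the pseudocount. Of 8 members tested 3 passed, against 15.1% of all 9739 genes. Of these, 1 was positive and 2 were negative, against 9.14% and 5.91% of all genes. Bcl2 differed by 0.82 (liver minus thymus, SE 0.20, adjusted p = 0.0199), and passed in all 18 alternatives that keep the titles (adjusted p from 0.00421 to 0.0463). Mcl1 differed by -0.45 (SE 0.109, adjusted p = 0.0179). The fit over all 12 libraries shares its spread between tissues, where Mcl1 averaged 25.3 FPKM (thymus) and 2.52 (liver). Its SE lay below that of the liver fit alone (0.118), so the call may look firmer than the single-tissue fits allow. The call of Mcl1 was lost with a replicate block (0.0596) and without thymus YFP+ replicate 1 (0.0541). Bid differed by -0.55 (SE 0.16, adjusted p = 0.0361), and its call was lost in 8 of 18 alternatives, with no filter on low values (0.0655) and without thymus cKO replicate 2 or 3, thymus YFP+ replicate 1 or 2, liver cKO replicate 2, or liver YFP+ replicate 1 or 2 (0.0572 to 0.0907). Of the 8 members, Bak1 reached the tested level through the liver alone and Bbc3 through the thymus alone. Bak1 did not pass, at 0.65 (SE 0.21, adjusted p = 0.0544).

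With the liver groups as the descriptions name them, an alternative chosen after seeing the data, 1 of the 8 members passed in this test. That was Bcl2, at -0.93 (adjusted p = 0.00483). Mcl1 was then at 0.22 (adjusted p = 0.131) and Bid at 0.10 (adjusted p = 0.649), so the calls of both between tissues rest on the titles.

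FPKM are divided by transcript length, so the members' levels are set side by side within a library. Length scaling does not remove reads mixed between overlapping genes, which may concern Bak1, Bcl2l1, Bcl2l11 and Bad. Mcl1 averaged 25.3 FPKM in the thymus and 2.52 in the liver, and the part of the separate tables in its place in the order was not tested. In the thymus the order by mean was Bax, Mcl1, Bcl2, Bcl2l1, Bid, Bbc3 and Bad in both origins, with Bcl2l11, Bak1 and Pmaip1 below them at means of 0.230 to 1.19 FPKM. Mcl1 lay above Bcl2 without overlap in both thymus groups, while Bcl2l1 and Bid overlapped in both, and in thymus cKO so did Bcl2 with Bcl2l1 and Bid with Bbc3. In liver cKO the order was Bax, Bcl2l1, Bcl2, Bid, Bad, Bak1 and Mcl1, and in liver YFP+ it was Bax, Bid, Bcl2l1, Bcl2, Bad, Mcl1 and Bak1, with Bbc3, Pmaip1 and Bcl2l11 last in both. Bcl2 and Bid overlapped in liver cKO libraries, and in liver YFP+ libraries Bcl2 lay below Bid in all 3. Bid overlapped Bcl2l1, and Mcl1 overlapped Bak1, in liver YFP+ libraries.

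Ratios of 2 members within a library do not depend on the scaling of that library. The ratio of Bax to Bcl2 was 3.05, 2.94 and 3.26 in liver cKO and 6.13, 6.59 and 6.03 in liver YFP+ libraries, a log2 difference of -1.02 with no overlap (exact two-sided permutation p = 0.1, the smallest that 3 against 3 allows). In the thymus it was 4.05, 2.91 and 2.73 in cKO and 3.23, 3.38 and 3.16 in YFP+ libraries, which overlapped (exact p = 1). The ratio of Bcl2 to Bcl2l11 was 35.7, 26.7 and 29.5 in thymus cKO and 17.97, 18.1 and 16.4 in thymus YFP+ libraries, 1.74-fold higher in cKO with no overlap (exact p = 0.1). All 3 thymus cKO libraries, including replicate 1, lay above the YFP+ libraries in this ratio. In replicate 1 Bcl2 was at its lowest thymus value, 15.6 FPKM, so the ratio of 35.7 came from Bcl2l11, at 0.436 FPKM. Bcl2l11 was below the tested level in both tissues, at means of 0.964 and 0.482 FPKM, so every ratio to it rests on low values. In the liver the ratio of Bcl2 to Bcl2l11 ran from 42.8 to 79.2 in cKO and from 30.1 to 62.5 in YFP+ libraries and overlapped (exact p = 0.5).

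The ratio of Mcl1 to Bcl2l11 was 59.1, 29.2 and 30.4 in thymus cKO and 20.6, 22.3 and 18.9 in thymus YFP+ libraries (exact p = 0.1), and overlapped in the liver (exact p = 0.3). The ratio of Mcl1 to Bcl2, chosen after its values were seen, was 0.0609, 0.0621 and 0.0598 in liver cKO and 0.162, 0.157 and 0.157 in liver YFP+ libraries. In the thymus it was 1.66, 1.09 and 1.03 in cKO and 1.15, 1.24 and 1.16 in YFP+ libraries. Mcl1 RNA was thus above Bcl2 RNA in all 6 thymus libraries and below it in all 6 liver libraries. The thymus and liver values come from separately normalized tables whose names point to paired-end and single-end reads, and the part of that in the contrast was not tested. Adjusted over the 6 planned ratio comparisons, the exact p of the 3 whose groups did not overlap was 0.2.

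**Figure D4:**
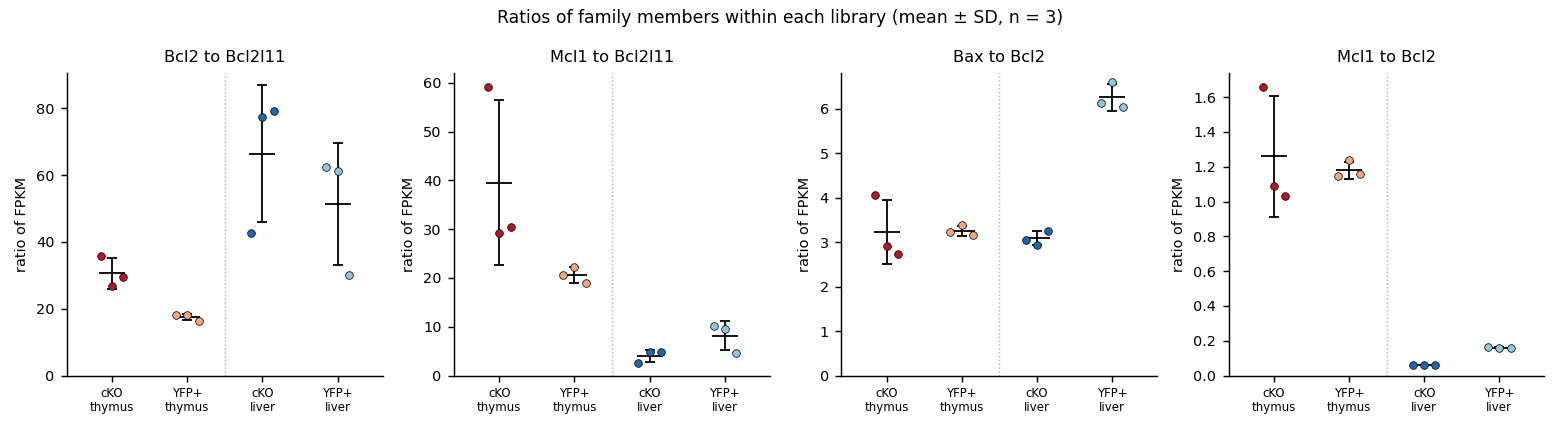
Ratio of FPKM of 2 members within each library (points), with group mean and SD (bars, n = 3) on a linear axis from 0, for 4 pairs of members. The Bax to Bcl2 ratio lies at 2.94 to 3.26 in liver cKO and 6.03 to 6.59 in liver YFP+ libraries.

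Other genes of the survival and death pathways were read from 5 lists of 70 genes. In the thymus 57 were tested, of which 0 passed as higher and 14 as lower, beside 2.64% and 13.1% of all genes. The thymus count of lower genes ran from 6 to 25 over the alternatives, with 6 under median-ratio scaling and 25 with array weights. Without 1 library it was 25 (cKO replicate 1), 9 (cKO replicate 3), 7 (cKO replicate 2 or YFP+ replicate 2) or 6 (YFP+ replicate 1 or 3). In the liver 56 were tested, of which 4 passed as higher and 15 as lower, beside 7.49% and 19.7% of all genes. That liver count of lower genes ran from 7 to 20, with 8 under median-ratio scaling or no filter, 7 without cKO replicate 3, 8 without cKO replicate 2 and 9 without YFP+ replicate 2. The counts of each list are set against the same shares of all genes.

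Among other Bcl2 family genes, 3 of 8 tested passed in the thymus and 3 of 7 in the liver, all lower in cKO, and in both tissues they were Bcl2a1a, Bcl2a1b and Bcl2a1d. These near-identical copies encode A1, a short-lived pro-survival protein induced by antigen receptor and NF-kB signals, and reads shared among them leave the level of each uncertain. Their summed level was 132.7, 99.96 and 119.7 FPKM in thymus cKO and 271.8, 268.4 and 310.6 in thymus YFP+ libraries, 2.41-fold lower in cKO. In the liver it was 387.7, 371.2 and 374.8 FPKM in cKO and 592.2, 541.1 and 467.5 in YFP+ libraries, 1.41-fold lower in cKO. The groups did not overlap in either tissue, and the summed copies lay above Bcl2, Bcl2l1 and Mcl1 in every library.

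The fitted differences were -1.32 for Bcl2a1a, -1.17 for Bcl2a1b and -1.32 for Bcl2a1d in the thymus (adjusted p = 9.05e-04, 1.54e-04 and 9.84e-04). In the liver they were -0.50, -0.45 and -0.52 in the same order (adjusted p = 0.00577, 0.0104 and 0.00665). All 3 passed in the thymus in 12 of 12 alternatives, and the liver call of Bcl2a1b was lost with median-ratio scaling (adjusted p = 0.0652). The difference was smaller in the liver: the interaction was 0.82, 0.72 and 0.81 for Bcl2a1a, Bcl2a1b and Bcl2a1d (adjusted p = 0.0102, 0.00383 and 0.0142).

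Of the caspase and apoptosome genes 3 of 15 tested passed as lower in the thymus and 7 of 14 in the liver, with 0 higher, where 13.1% and 19.7% of all genes passed as lower. Birc3, which encodes the ubiquitin ligase cIAP2, was lower in both, at 6.04 ± 0.564 against 10.1 ± 0.740 FPKM in the thymus and 9.72 ± 1.36 against 15.7 ± 0.918 in the liver (cKO against YFP+, mean ± SD, n = 3). Its groups did not overlap in either tissue (adjusted p = 0.00468 and 0.00638). Cycs, cytochrome c, was at 81.3 ± 4.39 against 112 ± 9.53 FPKM in the liver (adjusted p = 0.00663). In the thymus Casp2, an initiator caspase, was at 6.04 ± 0.735 against 8.24 ± 0.201 FPKM (adjusted p = 0.0323). The call of Casp2 was lost with median-ratio scaling (0.173), with no filter, a replicate block, and without thymus cKO replicate 2 or any single YFP+ library (0.0627 to 0.0994).

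Of the death receptor genes 2 of 11 tested passed as lower in the thymus, and 2 as higher and 2 as lower of 11 in the liver. In the liver, values of Fadd, the adaptor that recruits caspase-8, were 79.3, 74.7 and 82.5 FPKM for cKO and 46.1, 42.1 and 56.9 for YFP+ libraries (adjusted p = 0.00388), with every cKO library higher. In the thymus Fadd was at 1.38 ± 0.0785 against 1.62 ± 0.196 FPKM (adjusted p = 0.360). As for Mcl1, the part of the separate tables in the unlike levels of Fadd in thymus and liver was not tested. Ripk1, a kinase of the same complexes, was at 2.65 ± 0.631 against 1.498 ± 0.325 FPKM in the liver (adjusted p = 0.0495). The Ripk1 call was lost in 7 of 11 alternatives: a pseudocount of 0.1 FPKM, no filter, a replicate block, and without liver cKO replicate 1 or 3 or liver YFP+ replicate 2 or 3 (0.0526 to 0.154).

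Fasl, the ligand of the death receptor Fas, was at 58.5 ± 1.96 against 81.9 ± 3.89 FPKM in the liver (adjusted p = 0.00342) and at 22.6 ± 5.95 against 36.5 ± 5.88 in the thymus (adjusted p = 0.0381). In the thymus Tnfrsf1b, which binds tumour necrosis factor, stood at 31.9 ± 4.15 against 41.5 ± 2.36 FPKM (adjusted p = 0.0426). The thymus calls of Fasl and Tnfrsf1b were each lost in 8 of 12 alternatives: with median-ratio scaling, no filter or a replicate block, and without any single thymus library other than cKO replicate 1 (0.0584 to 0.205).

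Of the upstream cytokine and transcription genes 5 of 15 tested passed as lower in the thymus, and 2 as higher and 2 as lower of 17 in the liver. Il2rb, the receptor chain shared by interleukin 2 and interleukin 15, was at 251, 273 and 276 FPKM in thymus cKO and 351, 346 and 398 in thymus YFP+ libraries (adjusted p = 0.00998). In the liver, where its size of change did not place it among the 3 leading genes of the list and it was added after its values were seen, Il2rb was at 485, 490 and 520 FPKM in cKO and 337, 384 and 403 in YFP+ libraries (adjusted p = 0.00857). The direction was opposite in the tissues, and the interaction was 0.86 (SE 0.11, adjusted p = 5.73e-04). The thymus call of Il2rb was lost with median-ratio scaling (adjusted p = 0.0737), while its liver call and its interaction held in 12 of 12 and 18 of 18 alternatives that keep the titles. With the liver groups as the descriptions name them, Il2rb was lower in cKO in both tissues and the interaction was 0.04 (adjusted p = 0.822).

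Stat5b, a transcription factor downstream of that receptor, was at 6.18 ± 0.0554 against 9.62 ± 0.897 FPKM in the thymus (adjusted p = 0.00681), and Jak3, its kinase, at 10.6 ± 1.31 against 15.2 ± 0.710 (adjusted p = 0.0194). The Jak3 call was lost with median-ratio scaling (0.0659) and without any single thymus YFP+ library (0.0501 to 0.0775). In the liver Myc, a growth regulator, was at 22.8, 20.2 and 21.4 FPKM in cKO and 8.64, 10.00 and 11.4 in YFP+ libraries (adjusted p = 7.93e-04). The 2 lower genes of the list in the liver reached the tested level only through the YFP+ group, so their calls carry no weight. Il2ra, which makes the interleukin 2 receptor high in affinity, was at 0.998 ± 0.408 in cKO and 2.37 ± 0.282 FPKM in YFP+ libraries. Cdkn1a, which encodes the p53 target p21, was at 0.686 ± 0.250 in cKO and 1.78 ± 0.421 FPKM in YFP+ libraries.

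Of the genes linked to turnover of MCL-1 and BIM 1 of 8 tested passed in the thymus and 1 of 7 in the liver, both lower. In the thymus Mapk3, which encodes the kinase ERK1, was at 8.89 ± 0.564 against 12.1 ± 1.40 FPKM (adjusted p = 0.0346). This call was lost with median-ratio scaling (0.141), no filter or a replicate block, and without any single thymus library other than cKO replicate 1 (0.0522 to 0.101). In the liver Btrc, a subunit of a ubiquitin ligase, was at 1.77 ± 0.130 against 2.87 ± 0.348 FPKM (adjusted p = 0.0281). This call was lost with median-ratio scaling (0.0534), no filter or a replicate block, and without liver cKO replicate 1, 2 or 3 or YFP+ replicate 2 (0.0539 to 0.101).

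**Figure D5:**
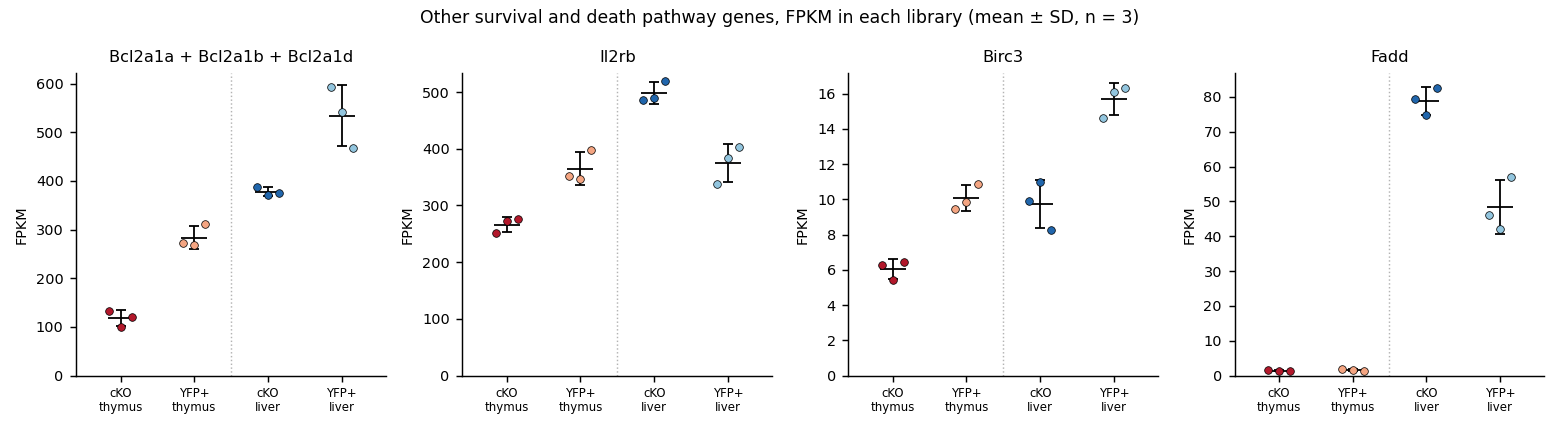
FPKM in each library (points), with group mean and SD (bars, n = 3) on a linear axis from 0, of the summed Bcl2a1 copies, Il2rb, Birc3 and Fadd. The summed Bcl2a1 copies lie at 99.96 to 132.7 FPKM in thymus cKO and 268.4 to 310.6 in thymus YFP+ libraries, and Il2rb is lower in cKO in the thymus and higher in cKO in the liver.

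Markers of other cells differed between the liver groups. Summed markers of DP thymocytes (10 of 10 listed in the tables) were at 25.3 to 26.3 FPKM in liver cKO and 82.8 to 92.8 in liver YFP+ libraries, with Dntt at 0.546 and 16.1 on average. B cell markers (7 of 7) summed to 1.97 to 3.36 against 11.6 to 12.2 FPKM, with Cd79b the largest part (2.25 and 6.17 on average). Pax5 was near the floor in both groups, at 0 FPKM in liver cKO and 0.0307 in liver YFP+ on average. Myeloid and Kupffer cell markers (10 of 11) summed to 17.8 to 20.4 against 54.9 to 72.1 FPKM. Clec4f was near the floor in both groups, at 0.027 FPKM in liver cKO and 0 in liver YFP+ on average. Erythroid markers (6 of 9) summed to 9.83 to 14.97 against 641 to 742 FPKM. The 2 gamma-delta T cell markers found of 6, Sox13 and Cd163l1, had a sum of 14.7 to 17.98 against 1.97 to 3.47 FPKM. NK cell and type 1 innate lymphoid markers (7 of 7) summed to 874 to 908 against 831 to 1033 FPKM. That sum holds opposite changes, since of 6 tested 2 passed as higher in cKO and 2 as lower. Ncr1 averaged 2.19 against 0.318 FPKM and Klre1 194 against 139, while Gzma averaged 165 against 235 and Klrb1c 129 against 159. Ncr1 reached the tested level only through the cKO group, so its call carries no weight. The sort took cells positive for T cell receptor beta and CD1d dimer and negative for CD4, CD8 and CD45R. RNA of genes for the excluded CD4 and CD8 was present and higher in liver YFP+ libraries. Cd4 averaged 1.90 FPKM in liver cKO and 8.44 in liver YFP+, Cd8a 0.130 and 1.30, and Cd8b1 0.844 and 13.1. The part of these markers in the liver differences of Bcl2, Bak1, Bcl2a1, Il2rb and Myc was not tested. Hepatocyte markers (8 of 8) summed to 12.6 to 16.7 against 37.6 to 43.1 FPKM, most of it Trf (12.2 and 38.4 on average), while Ttr, Fgb and Ahsg were at 0 in all 6 liver libraries.

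In the thymus, DP thymocyte markers summed to 6.91 to 8.60 FPKM in cKO and 17.4 to 22.2 in YFP+ libraries, while Cd8a averaged 0.0050 and 0.0097 FPKM. B cell markers summed to at most 2.03 FPKM in any thymus library and myeloid markers to at most 4.36. Erythroid markers reached 107.6 FPKM in 1 thymus cKO library and at most 0.851 in the YFP+ libraries. Hepatocyte markers summed to 4.37 to 6.28 against 26.3 to 30.4 FPKM, almost all of it Trf. NK cell and type 1 innate lymphoid markers summed to 254 to 347 FPKM in cKO and 300.5 to 316 in YFP+ libraries. Of 5 tested, 2 passed as higher in cKO, Klre1 at 114 against 49.7 FPKM and Tyrobp at 11.7 against 4.99. Gzma passed as lower, at 60.0 against 110 FPKM. The part of all these markers in the thymus differences of the Bcl2a1 copies and Il2rb was not tested.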

How the data were processed

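RNA from sorted NKT cells was measured in 12 libraries, 3 per group, with groups taken from the titles. The authors deposited FPKM, with each tissue in a table of its own. According to the submitters' processing notes, TopHat2 (version 2.8.0 as given there) and Cufflinks 2.1.1 were used with build mm9. FPKM are scaled by length and library total, so abundant transcripts in a library lower its other values. Read totals are unknown, and the number of libraries limits precision.

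Each tissue was fitted with limma-trend (limma 3.58.1, R 4.3.3) on log2(FPKM + 1), for genes averaging 1 FPKM or more, at an adjusted p of 0.05. The fold change on this scale understates the change of low genes. The interaction used all 12 libraries. The code was tested on simulated data. Ratios used exact permutation tests. Libraries of a group correlated at 0.988 to 0.995 and none was a copy of another.

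The members, gene lists and markers were chosen with earlier results of these data known. The text names all 10 members and, per list and tissue, up to 3 genes that passed with groups apart, by size. Some genes that this rule names are not reported here. Alternatives were pseudocount, filters, median-ratio scaling, array weights, a replicate block and leaving out each library. No reference protein table was used here. Gene overlaps come from RefSeq on another build, without coordinates.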

Additional observations from a re-analysis of the deposited data

Results flagged for a closer look

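For 3 of the 8 tested members the difference between cKO and YFP+ cells itself differed between liver and thymus in the interaction test in limma. Bcl2 differed by 0.82 on the log2 scale (liver minus thymus, adjusted p = 0.0199), with all 3 liver cKO libraries above the liver YFP+ libraries and overlapping groups in the thymus. Mcl1 differed by -0.45 (adjusted p = 0.0179), with all 3 cKO libraries higher in the thymus and all 3 lower in the liver. Bid differed by -0.55 (adjusted p = 0.0361), with all 3 cKO libraries lower in the liver and overlapping groups in the thymus. The call was lost in 8 of 18 alternatives for Bid, 2 for Mcl1 and 0 for Bcl2. All of these differences follow the titles of the liver libraries. With the groups that their descriptions name, the differences were -0.93 for Bcl2 (adjusted p = 0.00483), 0.22 for Mcl1 (adjusted p = 0.131) and 0.10 for Bid (adjusted p = 0.649), so 1 of the 3 passed.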

How the results depend on the processing

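The liver difference of Bcl2 and its difference between tissues kept their direction and their side of the threshold in the 12 and 18 alternatives that keep the titles. The count of genes that passed in the thymus, 1429 (240 higher and 1189 lower), was 801 with no filter, 812 with median-ratio scaling (448 higher and 364 lower), 2798 with array weights, 787 with a replicate block, and 472 to 2408 without 1 library. In the liver the count of 2607 (718 higher and 1889 lower) was 3940 with array weights and 1539 to 2640 without 1 library, and median-ratio scaling gave 1036 higher and 1066 lower. Between tissues the count of 1466 was 2634 with array weights and 983 to 1700 without 1 library.

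The count of members that passed in the thymus, 0, was 3 with median-ratio scaling, 1 with array weights and 0 to 2 without 1 library. In the liver the 2 became 1 with no filter, 5 with array weights and 1 to 2 without 1 library. With median-ratio scaling Bcl2l1 passed there beside Bcl2 and Bak1, all higher in cKO. Between tissues the 3 became 1 without thymus YFP+ replicate 1, within 1 to 4 over such fits. Signs turned for differences that had not passed: without 1 library the thymus values ran from -0.066 to 0.27 for Bcl2, -0.021 to 0.074 for Bax and -0.24 to 0.54 for Bbc3, and the values between tissues from -0.022 to 0.19 for Bcl2l1 and -0.12 to 0.66 for Bbc3. Bax in the liver was 0.0058 with median-ratio scaling. Between tissues Bcl2l1 was -0.0037 and Bbc3 -0.0072 with array weights. The cause of these shifts was not tested. With the liver groups as the descriptions name them, chosen after seeing the data, 3390 genes and 1 member passed between tissues, with Bcl2 at -0.93, Bcl2l1 at -0.42, Mcl1 at 0.22, Bax at 0.091, Bak1 at -0.37, Bid at 0.10, Bad at 0.50 and Bbc3 at -0.49.

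Same-numbered libraries of a tissue did not deviate together, with correlations across genes from -0.063 to 0.066. Differently numbered pairs ran from -0.113 to 0.110. With 3 libraries per group this cannot exclude that same-numbered libraries share more than a number. With the replicate block no call of a member within a tissue changed. Between tissues Mcl1 lost its call (adjusted p = 0.0596) and Bak1 gained one (0.0486). Absolute depth is unknown, so values under 1 FPKM have no counting error attached.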
